A study of Homo sapiens with 24 samples.

Results

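The mitosis and spindle genes are 45 genes that drive a cell into mitosis, build the spindle, hold and release sister chromatids, and divide the cytoplasm. They were taken by gene symbol from the annotation of the Illumina HumanHT-12 v4 array, where 69 of 47309 probes carried one of the 45 symbols. A probe was tested if at least 1 group had a detection p under 0.05 on each of its 2 arrays, which kept 66 of these 69 probes among 22803 probes tested in all. All 45 genes had a tested probe, out of 12529 genes tested, and the brightest tested probe stood for a gene. That probe was detected on all 24 arrays for each of the 45 genes.

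The cells were MDA-MB-231, a metastatic breast cancer line, grown in 1 medium and transfected with 50 nM of a microRNA mimic or inhibitor for 48 h before total RNA was taken. Of the 12 groups of 2 arrays, 1 received a non-targeting control mimic (NT), 6 a mimic (of miR-544a, miR-127-5p, miR-655-3p, miR-369-3p, miR-410 or miR-135a) and 5 an inhibitor of 1 of the same microRNAs other than miR-127-5p. A mimic is a synthetic duplex that raises the level of a microRNA, and an inhibitor is an antisense strand that binds it. The study asked what ectopic expression of microRNAs tied to limited metastatic spread does to gene expression. The groups model 1 cell line under transient transfection. No group received a non-targeting inhibitor, so the inhibitors had the NT mimic as their control, and the part of inhibitor chemistry in those differences was not tested. Whether the 2 arrays of any group hold RNA of separate cultures is not given in the labels, so the p-values reflect the spread between these arrays alone, which may be technical. Median signal before normalization ran from 101.7 to 123.1 per array, 19754 to 21286 probes were detected, and the arrays of a group correlated at 0.980 to 0.997.

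Mitosis begins when cyclin B1 (CCNB1) and its kinase CDK1 are switched on by CDC25 phosphatases. Polo-like and Aurora kinases then shape the spindle, kinesin motors move along its microtubules, and kinetochores tie chromosomes to it. The spindle checkpoint holds the anaphase-promoting complex (APC/C) until every chromosome is attached, and the centralspindlin complex and anillin then guide cell division. Most of these genes are transcribed late in the cell cycle, by factors that include FOXM1 and B-MYB, so their messages rise and fall with the share of dividing cells. In bulk RNA, fewer cells in mitosis and less RNA per cell cannot be told apart.

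The mature microRNAs are shown because they are what the mimics supplied and the inhibitors bound. They are the RefSeq sequences (GRCh38.p14), 5′ to 3′, with bases 2 to 8, the seed that pairs with target messages, in capitals. The labels give no arm for miR-135a and miR-410, and the 5p and 3p arms are printed for them.
miR-127-5p: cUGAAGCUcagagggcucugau
miR-135a: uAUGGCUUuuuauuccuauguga
miR-369-3p: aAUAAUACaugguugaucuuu
miR-410: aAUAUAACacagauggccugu
miR-544a: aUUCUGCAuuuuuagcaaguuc
miR-655-3p: aUAAUACAugguuaaccucuuu
No seeds were identical. The longest run common to a pair of seeds, among 15 pairs, was UAAUAC (6 bases), held by miR-655-3p and miR-369-3p.

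The 45 genes moved together across the arrays. Values are log2 signal after normexp background correction and quantile normalization. The median pairwise correlation over the 24 arrays was 0.481 among the 45 genes (990 pairs) and 0.0064 among all genes tested. A correlation above 0.5 was seen in 46.3% of member pairs and 5.25% of all pairs. These points share groups and arrays, so the values are a description. AURKA (0.887) and TTK (0.884) followed the median of the other members most closely, and CDC25B (0.157), MAD2L1 (0.185) and CDC20 (0.299) least. By limma's F test, 40 of 45 genes differed among the 12 groups at an adjusted p under 0.05, and 65.3% of all genes tested did. The 5 that missed the threshold were CDC25B, PLK1, BUB1, MAD2L1 and CENPE.

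The groups differed in the median of the 45 genes. As a deviation from each gene's mean over the 24 arrays, it was highest with the miR-655-3p inhibitor (0.31 and 0.22 on the log2 scale on its 2 arrays) and the miR-127-5p mimic (0.20 and 0.28). It was lowest with the miR-135a inhibitor (-0.27 and -0.27) and the miR-544a mimic (-0.28 and -0.13). The NT arrays lay between these at -0.01 and 0.02. Of the 45 genes, 17 had their highest group mean with the miR-655-3p inhibitor and 14 with the miR-127-5p mimic, while 15 had their lowest with the miR-135a inhibitor and 13 with the miR-544a mimic. Of all genes tested, 3.19% were highest with the miR-655-3p inhibitor and 15.6% with the miR-127-5p mimic, and 6.7% were lowest with the miR-135a inhibitor and 15.4% with the miR-544a mimic. Against NT, the median log2 difference of the 45 genes kept its sign in 9 of 11 groups when arrays were scaled to a common median in place of quantile normalization. It changed from 0.08 to -0.17 with the miR-410 mimic, where all genes then had -0.21, and from -0.01 to 0.00 with the miR-655-3p mimic.

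**Figure D1:**
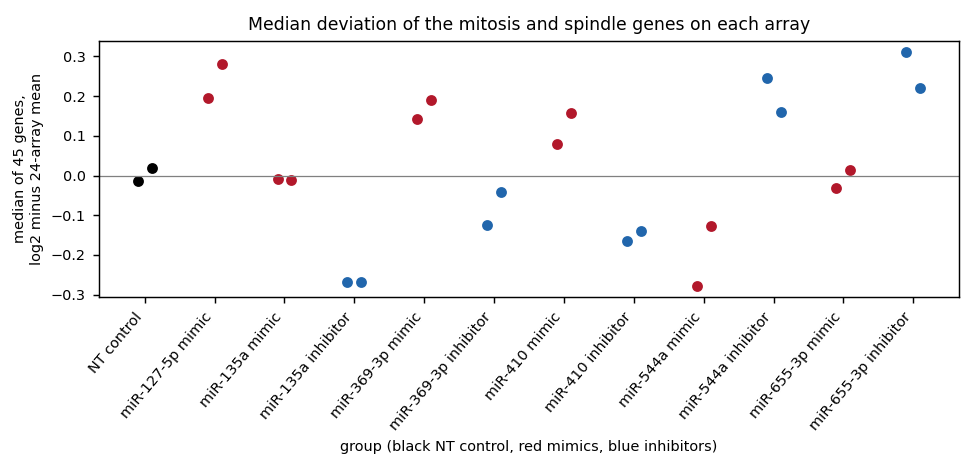
Median deviation of the 45 genes on each of the 24 arrays, in log2 units from each gene's mean over all arrays, by group. The arrays of the miR-655-3p inhibitor (0.31 and 0.22) and the miR-127-5p mimic (0.20 and 0.28) lie above the NT arrays (-0.01 and 0.02), and those of the miR-135a inhibitor (both -0.27) lie below.

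Promoters are shown because the members moved together across the arrays. The cell cycle homology region (CHR), TTTGAA, and the CCAAT box are known elements of late cell cycle promoters. RefSeq promoter windows from 250 bases before to 50 after a start site were found for 37 of the 45 genes (47 windows), and both motifs were sought on both strands. TTTGAA was in 31 of 47 windows (66%) and in 15.2% of 35116 windows of all genes. CCAAT was in 35 of 47 (74.5%) against 34.6%, and both were in 25 of 47 (53.2%) against 5.9%. A match is a description of the sequence, not a binding site. Each printed stretch holds 60 bases (GRCh38.p14) around the TTTGAA nearest to a start site, in the sense of the gene, with both motifs and their reverse complements (TTCAAA for the CHR, ATTGG for the CCAAT box) in capitals. They are given for genes whose values follow.
MKI67 (chr10:128126420-128126479, minus strand): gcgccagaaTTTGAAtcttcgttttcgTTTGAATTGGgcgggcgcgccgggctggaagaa
CDC25C (chr5:138331802-138331861, minus strand): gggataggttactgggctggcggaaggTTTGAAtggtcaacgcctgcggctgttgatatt
KIF14 (chr1:200620718-200620777, minus strand): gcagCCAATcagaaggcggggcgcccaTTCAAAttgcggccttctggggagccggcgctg
KIF23 (chr15:69414267-69414326, plus strand): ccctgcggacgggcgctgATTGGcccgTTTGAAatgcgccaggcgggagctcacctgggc
CDK1 (chr10:60778460-60778519, plus strand): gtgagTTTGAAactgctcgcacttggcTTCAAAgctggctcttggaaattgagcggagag
KIF4A (chrX:70290043-70290102, plus strand): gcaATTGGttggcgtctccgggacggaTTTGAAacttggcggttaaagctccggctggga
MKI67, a marker of dividing cells, carried TTTGAA at 2 places in its window, the later one running into ATTGG. The printed stretches of KIF14, KIF23 and KIF4A also held both motifs. That of CDK1 held no CCAAT box, but a stretch of another CDK1 window, not printed, held both motifs. TTTGAA was absent from 2 of the 4 windows of CDC25C, and none was found in the window of CCNB1.

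Ectopic expression of miR-544a lowered 9 of the 45 genes against NT and raised 1. The called genes were MKI67, CDC25C, KIF14, BIRC5, NUF2, BUB3, ANLN, ASPM and TPX2 (lower) and KIF4A (higher). A gene was called at an adjusted p under 0.05 (limma, Benjamini-Hochberg over 22803 probes) and a fold of at least 1.4. Over all genes tested, 10.7% were called lower and 14% higher, beside 20% and 2.22% of the 45. The median log2 difference was -0.20 over the 45 genes and 0.05 over all genes tested. All comparisons with NT share the same 2 NT arrays.

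MKI67, which coats mitotic chromosomes, had signals of 301 and 285 with NT and 89.5 and 62.4 with miR-544a. Both miR-544a arrays lay below all 22 others, whose lowest signal was 196. The log2 difference was -1.97 ± 0.16 (SE), adjusted p = 2.59e-07. CDC25C, the phosphatase that activates CDK1 at mitotic entry, had signals of 315 and 350.1 with NT and 89.7 and 109.8 with miR-544a. Again the groups did not overlap, and no other group had a mean below 292. The log2 difference was -1.74 ± 0.13 (SE), adjusted p = 6.99e-08, and the other 2 tested probes of CDC25C gave -1.82 and -1.25.

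KIF14, a kinesin of cytokinesis, had 1027 and 1011 with NT and 347 and 485 with miR-544a, a log2 difference of -1.31 ± 0.18 (SE), adjusted p = 5.47e-05. BIRC5 (survivin), a subunit of the chromosomal passenger complex that corrects faulty attachments, had 1348 and 1419.8 and then 576 and 566, a log2 difference of -1.28 ± 0.14 (SE), adjusted p = 5.29e-06. In neither gene did the arrays of the groups overlap. A dimmer probe of BIRC5 (mean signal 139.8, against 1210.1 for the probe used) was not called here (log2 difference -0.45) and was called higher in 7 other comparisons with NT, in which the brighter probe was not called. The other passenger subunits AURKB, INCENP and CDCA8 had log2 differences of -0.17, -0.06 and -0.16 and were not called.

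BUB3, a checkpoint protein that docks at kinetochores, had 7309 and 7743 for NT and 4309 and 4326 for miR-544a. Both miR-544a arrays lay below all 22 others, and the log2 difference was -0.80 ± 0.09 (SE), adjusted p = 5.7e-06. The checkpoint genes BUB1, BUB1B, TTK and MAD2L1 were not called (log2 differences from -0.33 to -0.11). NUF2, a rod subunit of the NDC80 kinetochore complex, had 170.3 and 229 and then 106 and 102 (-0.92 ± 0.15 (SE), adjusted p = 0.00026), and its second tested probe gave -0.97 and was not called here or in any other comparison with NT. Its partner NDC80 stood at -0.06 with an adjusted p of 0.776.

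ANLN, ASPM and TPX2 fell by smaller amounts, with log2 differences of -0.56, -0.55 and -0.54 and adjusted p of 0.00342, 0.00228 and 0.00973. Each of these 3 calls was lost under median scaling and when only the NT and miR-544a arrays were fitted. TOP2A, which untangles chromosomes, had signals of 5941 and 6401 with NT and 4674 and 5386 with miR-544a. Its adjusted p was 0.04, but the log2 difference of -0.30 did not reach the fold of 1.4. CCNB1, CDK1 and FOXM1 were not called, at -0.20, -0.36 and -0.39.

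**Figure D2:**
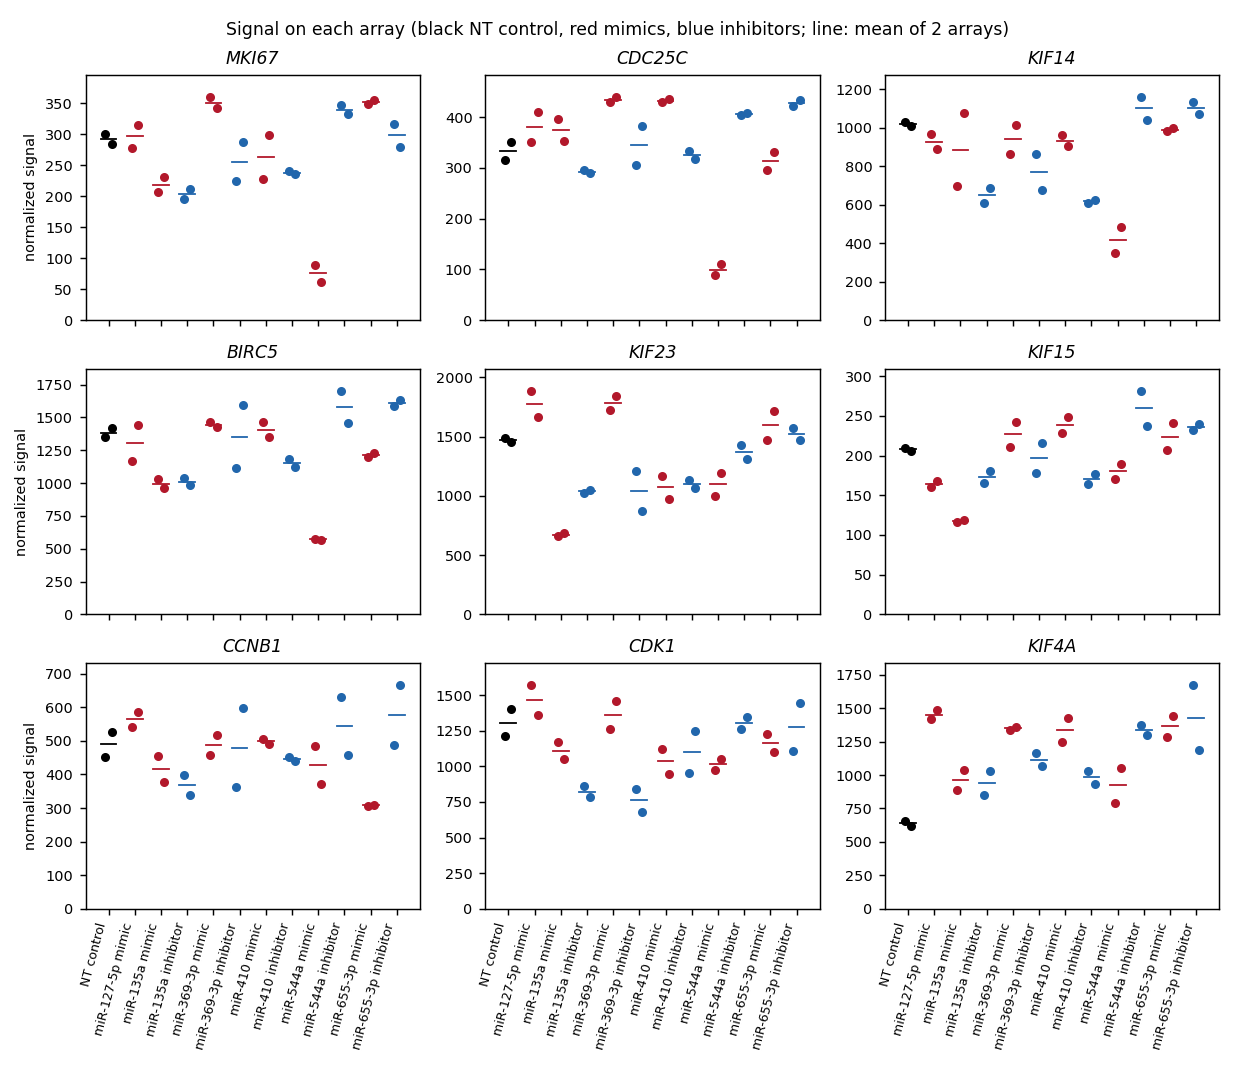
Normalized signal on each of the 24 arrays for 9 of the genes, by group, with the mean of 2 arrays as a line and axes starting at 0. MKI67, CDC25C, KIF14 and BIRC5 are lowest with the miR-544a mimic, KIF23 and KIF15 with the miR-135a mimic, CCNB1 with the miR-655-3p mimic, and KIF4A with NT.

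The miR-544a mimic was also compared with groups other than NT. Against the mean of the 5 inhibitor groups, 6 genes were lower, namely CDC25C, BIRC5, BUB3, SPC25, KIF14 and MKI67, and limma called none higher (0 at an unadjusted p under 0.05). Over all genes tested, 10.5% were lower and 12.6% higher, so the 13.3% of members called lower was near the share of all genes. NUF2, ANLN, ASPM and TPX2, which were called against NT, were not among the 6. The median log2 difference was -0.17 over the 45 genes and 0.05 over all genes tested. Under median scaling these medians were -0.02 and 0.15. CDC25C had a log2 difference of -1.84 ± 0.10 (SE), adjusted p = 1.12e-09, and MKI67 one of -1.81 ± 0.13 (SE), adjusted p = 2.38e-08. Against its own inhibitor, the miR-544a mimic lowered 16 genes, where 9.85% of all genes were lower, and none was called higher (0 at an unadjusted p under 0.05). Besides the 6 named above they were TPX2, ASPM, INCENP, CDCA8, NUF2, CENPF, KIF15, KIF18A, KIF4A and RACGAP1. The share of all genes called higher than with the inhibitor was not counted. The difference was negative in 42 of the 45 genes and in 43.6% of all genes. RACGAP1 was at 877 and 975 with the mimic and 1552 and 1517 with the inhibitor (-0.73 ± 0.10 (SE), adjusted p = 5.71e-05). Under median scaling the count of 16 was 7, and with only these 4 arrays in the fit it was 8.

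With ectopic miR-127-5p the median log2 difference of the 45 genes from NT was 0.20, close to that of miR-369-3p (0.19). None of the 45 genes was called lower than NT by limma (1 at an unadjusted p under 0.05), where 9.4% of all genes were. The 4 called higher were RACGAP1, KIF4A, SPC25 and PLK1, a share near the 9.71% of all genes. SPC25, a kinetochore subunit, had 319.6 and 322 with NT and 661 and 576 with miR-127-5p, and the arrays did not overlap. The log2 difference was 0.94 ± 0.13 (SE), adjusted p = 5.87e-05. A second probe of SPC25 was dim (mean signal 26.8) and was not called. PLK1, a kinase of mitotic entry and cytokinesis, had 145 and 153 and then 212 and 249.9 (0.62 ± 0.20 (SE), adjusted p = 0.0344), a call that was lost in 8 of 11 alternatives.

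Compared with the inhibitor groups, miR-127-5p raised 9 genes, namely CCNA2, CDK1, NDC80, NUF2, SPC25, KIF11, KIF23, ANLN and ECT2, and limma called none lower (3 at an unadjusted p under 0.05). All genes tested were called higher in 11% and lower in 10.6%. ECT2, which activates RhoA for the cleavage furrow, had the largest of these differences, 0.82 ± 0.16 (SE), adjusted p = 0.00076. KIF11, the motor that pushes spindle poles apart, had 1639 and 1467 with miR-127-5p and 1144 and 1162 with NT. Its difference from the inhibitor groups was 0.49 ± 0.09 (SE), adjusted p = 0.000626. Without background correction 5 genes were called.

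In direct comparisons of mimics, 21 of the 45 genes were higher with miR-127-5p than with miR-544a, and limma called none lower (1 at an unadjusted p under 0.05). Of all genes tested, 14.7% were called higher, and the share called lower was not counted. The difference was negative in 6 of the 45 genes and in 52.6% of all genes. The median log2 difference was 0.48 over the 45 genes and -0.03 over all genes tested. Under median scaling 11 were called, and 11 with only these 4 arrays in the fit. Each of the other mimics also had members above miR-544a, 15 with miR-369-3p (10.8% of all genes), 14 with miR-410 (10.9%), 12 with miR-655-3p (12.1%) and 9 with miR-135a (14.2%). With miR-135a 2 were lower instead (17.2% of all genes), and with miR-369-3p, miR-410 and miR-655-3p limma called none lower (0, 0 and 4 at an unadjusted p under 0.05). For these last mimics the share of all genes called lower was not counted. Below miR-544a lay 5 members with miR-369-3p (55.8% of all genes) and 7 with miR-410 (54.4%). With miR-655-3p, 33 members lay above miR-544a, where 46.2% of all genes did.

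By the probes used, ectopic expression of miR-135a lowered a pair of kinesins, KIF23 and KIF15. For the kinesin KIF11, a dimmer second probe was also called lower (-0.65), while the probe used gave -0.16 and was not called. KIF23, the motor subunit of centralspindlin, had 1484 and 1456 with NT and 659 and 687 with miR-135a, below all 22 other arrays. The log2 difference was -1.13 ± 0.14 (SE), adjusted p = 3.17e-05, and a second probe gave -1.22. KIF15, which helps KIF11 to keep the spindle bipolar, had 209.8 and 206 and then 117 and 118, again without overlap (-0.82 ± 0.12 (SE), adjusted p = 0.000145). RACGAP1, the partner of KIF23 in centralspindlin, was higher than NT instead, with 664 and 704 and then 1231 and 1229 (0.85 ± 0.10 (SE), adjusted p = 1.49e-05). KIF4A was the other gene called higher.

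These 2 lower and 2 higher genes compare with 9.28% and 10% of all genes. Under median scaling, which lowered the miR-135a values of genes at large, 7 were lower and 1 higher. Against the inhibitor groups KIF23, KIF15 and SPC25 were lower, where 7.93% of all genes were, and limma called none higher (3 at an unadjusted p under 0.05), against 8.62%. KIF23 differed from these groups by -0.83 ± 0.11 (SE), adjusted p = 3.71e-05 and KIF15 by -0.79 ± 0.09 (SE), adjusted p = 1.24e-05.

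CCNB1, the activator of CDK1, was called against NT with the miR-655-3p mimic and in none of the other 10 groups. Its signals were 453 and 527 with NT and 307 and 309 with miR-655-3p, and no array of another group was lower than 339. The log2 difference was -0.67 ± 0.22 (SE), adjusted p = 0.0489, and 9 of 11 alternatives lost the call. Against the inhibitor groups it was -0.61 ± 0.17 (SE), adjusted p = 0.0143, the only member called there, while 7.46% of all genes were lower. None was higher by limma (4 at an unadjusted p under 0.05), against 7.14%. In direct comparisons of mimics, CCNB1 was lower with miR-655-3p than with miR-127-5p (log2 difference of 0.87 for miR-127-5p over miR-655-3p, adjusted p = 0.0069) and miR-410 (0.70, adjusted p = 0.0431), and the comparisons with the other 3 mimics were not called.

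ASPM, a spindle pole protein, and NUF2 were the other genes lower with miR-655-3p than with NT, at -0.53 and -0.55, and KIF4A and RACGAP1 were higher. The 3 lower and 2 higher compare with 7.39% and 6.68% of all genes, and median scaling left none lower and 2 higher. The count of 5 was 2 without replicate 2 of NT and 3 without replicate 2 of the mimic, and without the latter no member was called against the inhibitor groups. NUF2's second probe, of similar brightness, gave 0.37 here, so its fall rests on 1 probe. Against the miR-655-3p inhibitor, 6 genes were lower with the mimic (CCNB1, ASPM, CDC20, PTTG1, KIF20A and KIF2C), where 6.35% of all genes were, and limma called none higher (0 at an unadjusted p under 0.05). The share of all genes called higher was not counted there. The mimic lay below the inhibitor in 41 of the 45 genes and in 50.3% of all genes. CDC20, the activator of the APC/C, had 5364 and 5348 with the mimic and 7787 and 7714 with the inhibitor, without overlap (-0.53 ± 0.10 (SE), adjusted p = 0.00171). NT stood at 5649.9 and 5776. PTTG1 (securin), which the APC/C destroys at anaphase, differed by -0.53 ± 0.09 (SE), adjusted p = 0.000661.

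With miR-369-3p, none of the 45 genes was called lower than NT by limma (3 at an unadjusted p under 0.05), where 2.95% of all genes were. Higher were KIF4A, RACGAP1, CENPA and SPC25, against 2.86% of all genes. The count of 4 was 2 without either NT array or either array of the mimic. CENPA, the histone variant that marks centromeres, had 844 and 851 with NT and 1233 and 1259 with miR-369-3p (0.56 ± 0.13 (SE), adjusted p = 0.015). Relative to the inhibitor groups, CCNA2 and KIF23 were higher, where 2.13% of all genes were, and none was lower by limma (0 at an unadjusted p under 0.05), against 2.05%. Against its own inhibitor 7 were higher (4.28% of all genes), and none was lower (0 at an unadjusted p under 0.05). CDK1 led them with 1263 and 1459.9 for the mimic and 844 and 683 for the inhibitor (0.84 ± 0.16 (SE), adjusted p = 0.00505). The share of all genes called lower than with the inhibitor was not counted. The mimic lay below the inhibitor in 5 of the 45 genes and in 55.5% of all genes. This count of 7 was 2 under median scaling, 0 with only these 4 arrays in the fit, 1 without replicate 2 of the inhibitor and 3 without either array of the mimic.

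With miR-410, none was lower than NT by limma (2 at an unadjusted p under 0.05), where 4.63% of all genes were, and INCENP, CENPA, KIF4A and RACGAP1 were higher, against 4.14%. Median scaling gave 1 lower and 1 higher. INCENP, the scaffold of the passenger complex, had 302 and 286 with NT and 503 and 461 with miR-410 (0.71 ± 0.13 (SE), adjusted p = 0.00256). It was the only member called against the inhibitor groups (0.61 ± 0.10 (SE), adjusted p = 0.000998), where 3.02% of all genes were higher. None was lower there (1 at an unadjusted p under 0.05), against 3.7%. ASPM, INCENP and ANLN were higher than with the miR-410 inhibitor (4.84% of all genes), and none was lower (0 at an unadjusted p under 0.05). The share of all genes called lower was not counted in this comparison. The mimic lay below the inhibitor in 4 of the 45 genes and in 44.6% of all genes.

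Among the inhibitors, that of miR-135a lowered the most members. The 9 genes were NUF2, BUB1B, ASPM, CDK1, KIF14, ANLN, MKI67, KIF23 and NDC80, and KIF4A and RACGAP1 were higher. The call of MKI67 (-0.52) was lost in 9 of 11 alternatives, and those of KIF14 and NDC80 in 5 each. All genes were called lower in 6.97% and higher in 6.58%. Median scaling gave 4 lower and 0 higher, and the fit without background correction 5 lower and 2 higher. The count of 11 was 5 without replicate 2 of NT and 6 without either array of the inhibitor. CDK1, the kinase of mitotic entry, had 1213 and 1402 with NT and 859 and 786 with the inhibitor, without overlap (-0.67 ± 0.16 (SE), adjusted p = 0.0106). BUB1B, which restrains CDC20, had 133 and 137 and then 81.0 and 80.6 (-0.74 ± 0.17 (SE), adjusted p = 0.006). NUF2 fell by the most on the log2 scale, -0.98 ± 0.15 (SE), adjusted p = 0.000366, while its second probe gave -0.10.

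The miR-135a mimic and inhibitor did not mirror each other in KIF23. Its signal was 1028 and 1052 with the inhibitor, also below NT (-0.50 ± 0.14 (SE), adjusted p = 0.0264), and above the mimic's. The call against NT was lost in 6 of 11 alternatives, and the second probe of KIF23 gave -0.53 and was not called. The log2 difference from NT was -0.52 with the miR-369-3p inhibitor (called) and -0.42 with that of miR-410 (not called). With the inhibitors of miR-544a and miR-655-3p it was -0.10 and 0.05. Between mimic and inhibitor, KIF23 and KIF15 were lower with the mimic, where 8.94% of all genes were. ASPM, INCENP, BUB1B, NUF2 and ANLN were higher, where 9.76% were, and median scaling gave 0 lower and 1 higher.

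The miR-369-3p inhibitor lowered CDK1, NUF2, ANLN, TPX2, KIF23 and ASPM and raised KIF4A and RACGAP1, against 5.6% lower and 8.15% higher of all genes. CDK1 was at 844 and 683 (-0.78 ± 0.16 (SE), adjusted p = 0.00445). With only the NT and these arrays in the fit no member was called, and without background correction 3 were lower and 2 higher. The count of 8 was 3 without replicate 2 of NT. The miR-410 inhibitor lowered NUF2, KIF14, ASPM and ECT2, where 6.58% of all genes were lower, and raised KIF4A and RACGAP1, where 4.59% were higher. ASPM was at 1709 and 2053 with NT and 1133 and 1153 with this inhibitor (-0.71 ± 0.12 (SE), adjusted p = 0.000957). The groups did not overlap in ASPM. The count of 6 was 3 without replicate 1 of NT or either array of the inhibitor, and 2 without replicate 2 of NT.

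With the inhibitors of miR-544a and miR-655-3p no member was called lower by limma (0 in each at an unadjusted p under 0.05), where 2.42% and 1.57% of all genes were. The miR-544a inhibitor raised SPC25, KIF4A and RACGAP1 (2.35% of all genes). The miR-655-3p inhibitor raised 7 genes, KIF4A, RACGAP1, SPC25, INCENP, KIF20A, KIF2C and CENPA, against 2.52% of all genes. KIF20A, a kinesin of late mitosis, had 1784 and 1756 with NT and 2739 and 2543 with the inhibitor (0.58 ± 0.12 (SE), adjusted p = 0.0144). The microtubule depolymerase KIF2C differed by 0.57 ± 0.12 (SE), adjusted p = 0.00912. Of these 7 calls only that of RACGAP1 was kept under median scaling, and likewise with only the NT and these arrays in the fit. The count of 7 was 2 without either NT array and 3 without replicate 1 of the inhibitor.

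**Figure D3:**
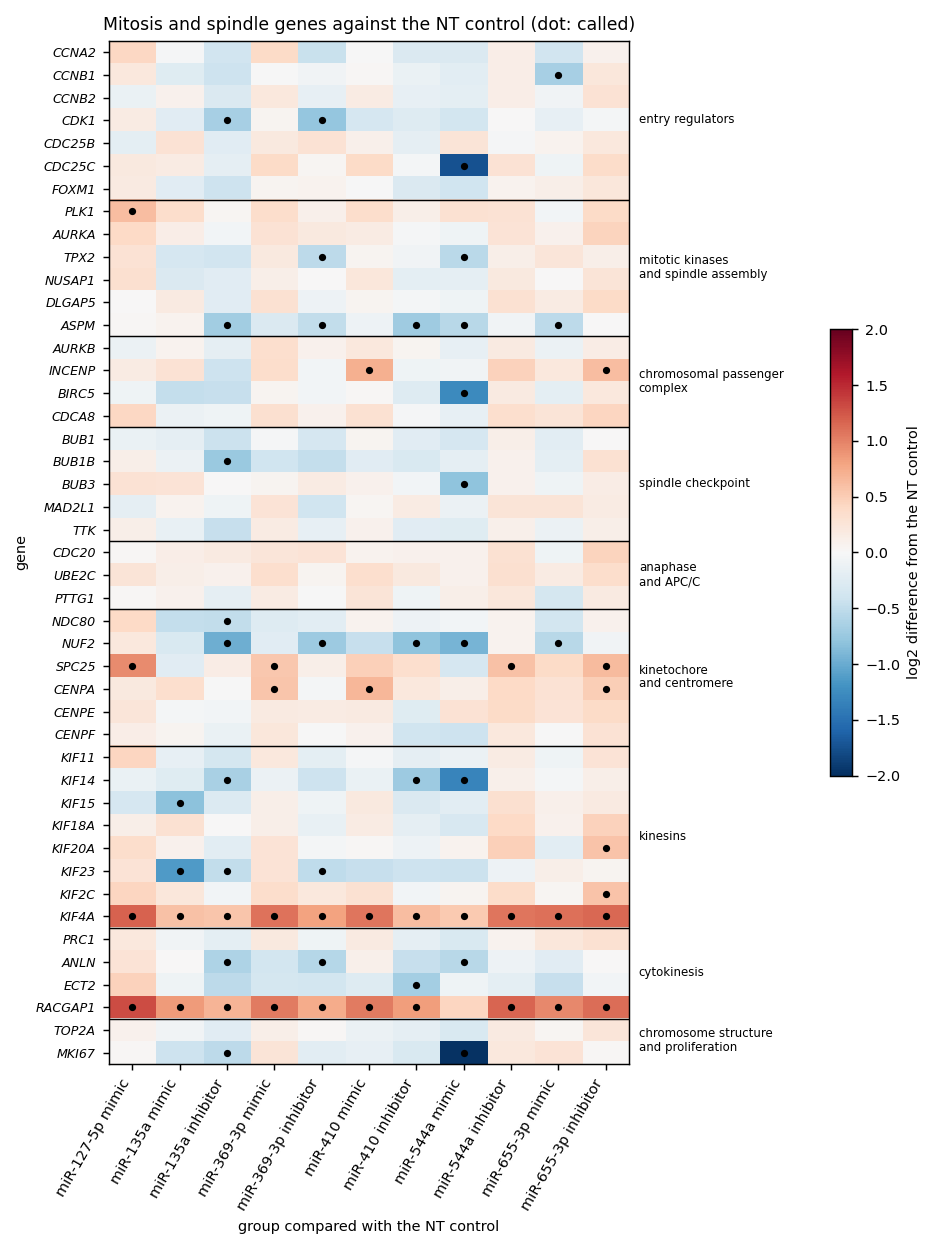
Log2 difference from NT of the 45 genes (rows, by role) in the 11 other groups (columns), with a dot where a gene was called. The miR-544a mimic column holds 9 lower calls and 1 higher, and KIF4A is marked in all 11 columns.

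KIF4A and RACGAP1 were the members called higher than NT most often. NT was the lowest group of 3 members, these and UBE2C, whose log2 differences from NT ran from 0.06 to 0.35 with no call. KIF4A, a chromosome-bound kinesin that shapes the central spindle, had 653 and 622 with NT, and its other arrays ran from 794 to 1672. It was called higher in all 11 comparisons with NT. RACGAP1 had 664 and 704 with NT and from 877 to 1734 on the other arrays, and was called higher in 10 of 11, all but the miR-544a mimic (0.44 ± 0.10 (SE), adjusted p = 0.00379). Of all genes tested, 48 were called higher in all 11 comparisons and 5 lower. These 11 comparisons share the same 2 NT arrays and are not independent of each other. Neither gene was called in any comparison of a mimic with the inhibitor groups. A second probe of RACGAP1 was also called higher in 8 of the 11.

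**Figure D4:**
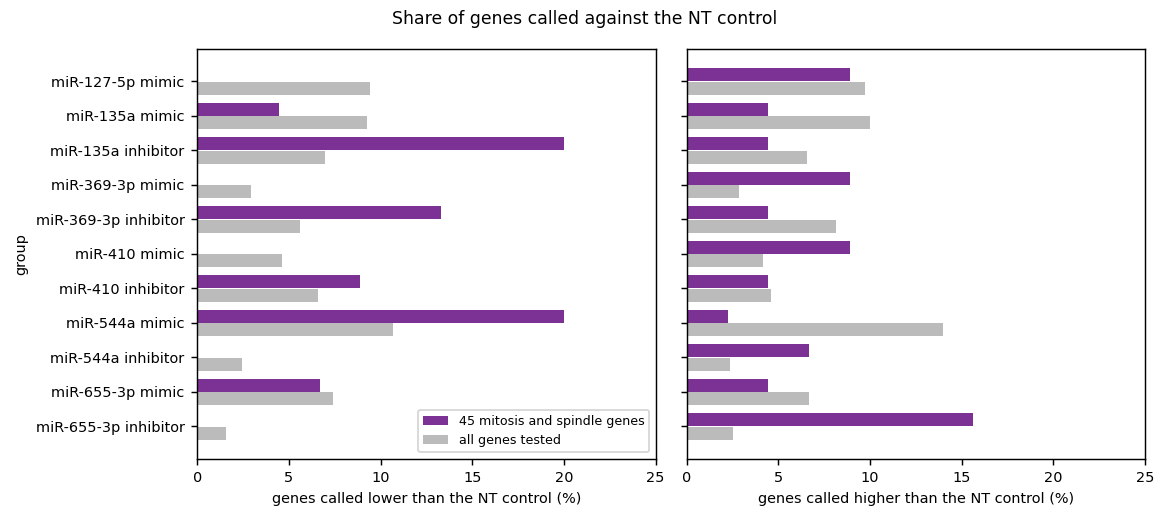
Share of the 45 genes and of all genes tested called lower (left) or higher (right) than NT, in percent, for the 11 other groups. The members' share of lower calls was above that of all genes with the miR-544a mimic (20% and 10.7%) and the inhibitors of miR-135a (20% and 6.97%) and miR-369-3p (13.3% and 5.6%). With the miR-410 inhibitor it was near that of all genes (8.89%, 4 genes, and 6.58%). Their share of higher calls was above that of all genes with the mimics of miR-369-3p (8.89%, 4 genes, and 2.86%) and miR-410 (8.89%, 4 genes, and 4.14%). The same held for the inhibitors of miR-544a (6.67%, 3 genes, and 2.35%) and miR-655-3p (15.6%, 7 genes, and 2.52%). In each of these groups the higher calls included KIF4A and RACGAP1, for which the shared NT arrays were the lowest group.

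Of the 45 genes, 24 (53.3%) were called in at least 1 comparison with NT and 21 in none, a share near the 55.3% of all genes tested. The APC/C partners CDC20, UBE2C and PTTG1 were among the 21, as were AURKA, AURKB, CCNA2, CCNB2, FOXM1, KIF11, CENPF and TOP2A. These counts rest on the probe used for each gene. Dimmer tested probes of KIF11, UBE2C and NUSAP1 were called in 4, 3 and 3 comparisons with NT. That of KIF11 (mean signal 366) was lower with the mimics of miR-135a (-0.65) and miR-655-3p (-0.67). It was also lower with the inhibitors of miR-135a (-0.78) and miR-410 (-0.51). AURKA, the kinase of spindle poles, ran from 3937 to 6654, median 5144 over the 24 arrays. Its widest difference from NT was 0.45 ± 0.11 (SE), adjusted p = 0.0387, with the miR-655-3p inhibitor and under the fold of 1.4. FOXM1, a transcription factor of late cell cycle genes, ran from 596 to 1248, median 881, and passed the F test with an adjusted p of 0.0347. CENPF, a kinetochore protein, ran from 849 to 1813, median 1227, lowest on an array of the miR-544a mimic and highest on one of the miR-655-3p inhibitor. MAD2L1, the checkpoint protein MAD2, ran from 1200.2 to 2489, median 1868 and did not pass the F test (adjusted p = 0.0897). PLK1 did not pass it either (adjusted p = 0.138).

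Other genes of mitosis, 129 on lists of kinetochore, cohesin and condensin, APC/C, spindle and centrosome, entry and exit, and transcriptional regulators, were counted in the same way. Of 119 tested, 30 (25.2%) were lower and 2 (1.68%) higher with miR-544a than with NT, with a median of -0.25, beside 10.7% and 14% of all genes. The APC/C list had 3 of 14 lower and a median of 0.13, and the other 5 lists had medians from -0.31 to -0.25. STAG2, a cohesin subunit, differed by -1.60 ± 0.16 (SE), adjusted p = 1.78e-06, RBL1 (p107), a repressor of cell cycle genes, by -1.79 ± 0.17 (SE), adjusted p = 1.12e-06, and NEK2, a centrosome kinase, by -1.26 ± 0.23 (SE), adjusted p = 0.000714. With the miR-135a mimic 13.4% were lower and 4.2% higher (all genes: 9.28% and 10%), and with the miR-135a inhibitor 13.4% and 0% (all genes: 6.97% and 6.58%). With the miR-369-3p inhibitor 11.8% were lower and 2.52% higher (all genes: 5.6% and 8.15%), and with the miR-127-5p mimic 11.8% and 8.4%, shares near those of all genes (9.4% and 9.71%). For the other 6 groups the shares lower and higher follow, with those of all genes in brackets. With the miR-369-3p mimic they were 0.84% and 3.36% (2.95% and 2.86%). For miR-410 the mimic had 2.52% and 2.52% (4.63% and 4.14%) and the inhibitor 5.04% and 0.84% (6.58% and 4.59%). The miR-544a inhibitor had 0.84% and 5.04% (2.42% and 2.35%). For miR-655-3p the mimic had 2.52% and 1.68% (7.39% and 6.68%) and the inhibitor 0% and 5.88% (1.57% and 2.52%). Of 26 S phase genes tested, miR-544a lowered 11 (42.3%) and raised 1, and miR-135a lowered 8 (30.8%) and raised 1. Of 6 tested CDK inhibitor genes, miR-544a lowered 1 and raised 1, and the other groups lowered 0 to 2 and raised 1 or 2. CDKN1A (p21), an inhibitor of cyclin-dependent kinases, was higher than NT in 6 of 11 groups: with the mimics of miR-127-5p (1.79 ± 0.11 (SE), adjusted p = 1.41e-08), miR-544a (1.65 ± 0.11 (SE), adjusted p = 3.16e-08) and miR-655-3p (0.82), and with the inhibitors of miR-369-3p (0.94), miR-135a (0.92) and miR-410 (0.56). The medians of the 45 genes against NT ran from -0.23 to 0.20 in these 6 groups.

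Markers of the cell line and of other cell types were checked on the same arrays. VIM, CD44, CAV1, MSN and AXL of the 6 mesenchymal markers were detected on all 24 arrays and SPARC on none. ESR1, FOXA1 and CDH1 were detected on none, PGR on 1, KRT18 on 23, and GATA3 and KRT8 on 24. Among markers of leukocytes, endothelium and red cells, PTPRC, CD3E, VWF and HBB were detected on none, PECAM1 on 16 and CD68 on 24. Some detected markers differed from NT. With miR-544a, CAV1 (-0.68) and GATA3 (-0.65) were lower and MSN (0.51) and CD68 (0.81) higher on the log2 scale. CD68 was lower with the mimics of miR-135a (-1.79) and miR-655-3p (-0.57) and higher with the inhibitors of miR-135a (0.77), miR-369-3p (0.70) and miR-410 (0.68). GATA3 was lower with the miR-135a mimic (-0.58), and KRT8 was higher with miR-655-3p (0.78) and miR-369-3p (0.58). PECAM1 was lower in 5 groups, those of the miR-544a inhibitor and the miR-410, miR-655-3p, miR-127-5p and miR-369-3p mimics (-0.92 to -0.50). The part of these differences in the members' values was not tested.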

How the data were processed

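Total RNA of MDA-MB-231 cells was hybridized to Illumina HumanHT-12 v4 arrays, 24 arrays in 12 groups of 2. The authors deposited a table of probe intensity values and detection p-values for each array, with no background correction or normalization that the values show, and a second table of processed log2 values. By their methods the second was background-subtracted and quantile-normalized in BeadStudio. Its log base was taken as 2, since its lowest value is -3.322 (log2 of 0.1), and it was used only as an alternative, with 13353 to 13395 values missing per array. The labels and the study's methods name different RNA extraction kits. Groups were taken from the sample titles. No build is named, so no coordinate is attached to a probe.

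The neqc function of limma 3.58.1 (R 4.3.3) estimated each array's background from its detection p-values, applied normexp correction with an offset of 16, quantile normalization and a log2 transform. The filter on probes required detection (p under 0.05) on the 2 arrays of 1 group or more. One model with 12 group means was fitted in limma (12 residual and 3.96 prior degrees of freedom) over 22803 probes, and all p-values, two-sided, were adjusted by Benjamini-Hochberg over these probes. Each group was compared with NT, each mimic with the mean of the 5 inhibitor groups, with its own inhibitor and with the other mimics. Changes are on the log2 scale after the offset, which understates those of dim probes. SAM, the test named in the study's methods, was not run. The statistics were tested on simulated data. With 2 arrays in a group, not every simulated log2 change of -1 was called. The first bar for their recovery was missed and was then lowered.

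Symbols came from the platform annotation, in which 30109 probes had 1 symbol, 8 had several and 17192 had none. A gene's brightest tested probe was used. All 45 members may be named. Values on every array are given for chosen core genes and for called genes with the largest changes, and at most 3 genes of any other list are named per comparison. Members and gene lists were chosen with earlier results of these data known. Precision is limited by there being 2 arrays in a group. The alternatives tried were other background corrections, median scaling, the authors' table, no filter, fits on the compared arrays alone, a replicate block, any tested probe of a gene, and leaving out each array. One marker gene of the cell type check is not reported here.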

Additional observations from a re-analysis of the deposited data

Results flagged for a closer look

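For 6 genes, the change under 1 mimic differed from that under each of the other 5 mimics in direct limma tests of the difference. With miR-544a, CDC25C was lower by a log2 difference of -1.66 to -2.13 against the other mimics (highest adjusted p = 7.43e-08). BIRC5 was lower by -0.80 to -1.34 (highest adjusted p = 0.000325), BUB3 by -0.72 to -1.09 (highest adjusted p = 1.29e-05), KIF14 by -1.08 to -1.27 (highest adjusted p = 0.000238) and MKI67 by -1.55 to -2.24 (highest adjusted p = 2.18e-06). With miR-135a, KIF23 was lower by -0.67 to -1.41 (highest adjusted p = 0.00417). The 15 pairs of mimics and 45 genes were all examined, and these 6 were picked for passing all 5 tests. The share of all genes tested that passes the same 5 tests was not counted, so whether 6 of 45 is unusual is not known. Groups of 2 arrays are too small for a check of single outlying arrays.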

How the results depend on the processing

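No called change against NT reversed in direction under any alternative. The calls of MKI67, CDC25C, KIF14, BIRC5, BUB3 and NUF2 with the miR-544a mimic, and of KIF23 and KIF15 with the miR-135a mimic, were each kept under all 11 alternatives. Of 66 calls against NT, 53 were kept without background correction, 64 with plain subtraction, 29 under median scaling, 61 with the authors' table, 62 with no filter and 47 with only the compared arrays. When 1 array was left out, 169 of 264 were kept.

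Median scaling moved the median of all genes against NT from 0.01 to -0.21 with the miR-410 mimic and from 0.01 to -0.20 with the miR-135a mimic. It changed the number of members called against NT to 8 for the miR-135a mimic, 4 for its inhibitor, 2 for the miR-369-3p mimic, 3 for its inhibitor, 2 for the miR-410 mimic, 3 for its inhibitor, 6 for the miR-544a mimic, 1 for its inhibitor, 2 for the miR-655-3p mimic and 1 for its inhibitor. Against the inhibitor groups it gave 6 for miR-135a and 0 for miR-410, between mimic and inhibitor 1 for miR-135a, 2 for miR-369-3p, 0 for miR-410, 7 for miR-544a and 1 for miR-655-3p, between miR-127-5p and miR-544a 11, and in the F test 23. Without background correction the counts were 7 for the miR-135a inhibitor and 5 for the miR-369-3p inhibitor against NT, 5 for miR-127-5p and 0 for miR-410 against the inhibitor groups, and 4 between miR-135a mimic and inhibitor. With only the compared arrays, which leaves 2 residual degrees of freedom for a pair of groups, they were 0 for the miR-369-3p inhibitor, 6 for the miR-544a mimic and 1 for the miR-655-3p inhibitor against NT, 0 for miR-369-3p, 1 for miR-410, 8 for miR-544a and 1 for miR-655-3p between mimic and inhibitor, and 11 between miR-127-5p and miR-544a. With any tested probe of a gene they were 7 for the miR-127-5p mimic and 6 for the miR-544a inhibitor against NT, and 5 for miR-135a against the inhibitor groups. Apart from the residual degrees of freedom, the cause of these shifts was not tested.

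When 1 array was left out, the numbers called against NT ran from 3 to 4 for the miR-127-5p mimic, 3 to 5 and 5 to 8 for the miR-135a mimic and inhibitor, 2 to 2 and 3 to 8 for miR-369-3p, 4 to 6 and 2 to 3 for miR-410, 8 to 11 and 2 to 2 for miR-544a, and 2 to 4 and 2 to 6 for miR-655-3p. Against the inhibitor groups they ran from 6 to 9 (miR-127-5p), 2 to 4 (miR-135a), 1 to 2 (miR-369-3p), 1 to 2 (miR-410), 6 to 10 (miR-544a) and 0 to 1 (miR-655-3p). Between mimic and inhibitor they ran from 6 to 8 (miR-135a), 1 to 7 (miR-369-3p), 2 to 3 (miR-410), 12 to 20 (miR-544a) and 4 to 6 (miR-655-3p), and between miR-127-5p and miR-544a from 17 to 26. Leaving out an NT array moved counts by over 1.5 times for the miR-135a, miR-369-3p, miR-410 and miR-655-3p inhibitors and for the miR-369-3p and miR-655-3p mimics. Against the inhibitor groups, the count was 2 without either array of the miR-410 mimic, 1 without either array of the miR-369-3p mimic, 10 without replicate 2 of the miR-544a mimic and 0 without replicate 2 of the miR-655-3p mimic.

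Deviations of replicate 1 from its group mean correlated between groups at -0.485 to 0.521 (median 0.0411), with 27 of 66 pairs above 0.1. Same-numbered arrays thus did not vary together throughout. This check cannot tell whether some arrays of different groups shared a culture or batch, and the model held no such term. The replicate block gave 39 genes in the F test and moved no count by over 1.5 times, and of 66 calls it lost those of CCNB1 with the miR-655-3p mimic and CENPA with the miR-655-3p inhibitor. Alternatives for the comparisons of mimic with own inhibitor and of miR-127-5p with miR-544a were added after seeing the data. The BeadChip as a block was not run, since the column names give no BeadChip. Dim probes are limited by signal over background. Second probes of SPC25, NUF2 and INCENP correlated with the probe used at -0.109, 0.355 and 0.424 over 24 arrays, and none of the calls of those genes against NT was shared by the second probe.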
